A study of Mus musculus with 6 samples.

Results

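The genes followed here were 10 purinergic receptors and nucleotide-cleaving enzymes of the cell surface, namely P2rx4, P2rx7, P2ry2, P2ry6, P2ry12, P2ry14, Entpd1, Nt5e, Adora2a and Adora2b. They were found by gene symbol in a table of 57010 genes, and all 10 were present, each with 1 row. The table holds RNA-seq read counts of primary neonatal mouse cardiomyocytes (NMCMs), heart muscle cells isolated from newborn C57BL/6 mice and separated from fibroblasts by their slower adhesion. All 6 libraries came from cells under hypoxia (HO). Of these, 3 were given vehicle (HO + Vehicle, V1 to V3) and 3 were given β-sitosterol, a plant sterol (HO + β-SITO, T4 to T6). The question of the comparison was which transcripts differ when the hypoxic cells receive β-SITO. The dose, the time under hypoxia and the number of separate cell preparations for these libraries are not given in the sources used here, so p-values measure only the spread between these libraries, which may be technical. The library names of the HO + β-SITO group carry a suffix that the others lack, and if these libraries were prepared separately, preparation and treatment cannot be told apart.

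Stressed or damaged cells release ATP, UTP and UDP-glucose, which act on neighbouring cells as signals. P2X receptors are ion channels opened by ATP, and P2Y receptors are G protein-coupled receptors for ATP, ADP, uracil nucleotides or nucleotide sugars. On the cell surface, CD39 (Entpd1) cleaves ATP and ADP to AMP, and CD73 (Nt5e) cleaves AMP to adenosine, which acts on the adenosine receptors. In the heart this chain is known for its part in the response to low oxygen, in vessel tone and in the behaviour of immune cells.

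The libraries held 16694734 to 18460522 counts each. Counts were scaled with edgeR's TMM factors and are given as CPM (counts scaled to a common library size), and the quasi-likelihood test of edgeR was run on 14799 genes, with p-values adjusted by the Benjamini-Hochberg method. A gene was called at an adjusted p under 0.05 and a change of more than 2-fold. All 10 genes passed the filter on low counts, and their counts ranged from 15 to 2689 in a library. Their coefficient of variation between replicates, beyond counting error, was between 4.83% and 12.6%.

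Of the 10 genes, 6 were called. Adora2b, P2rx4 and P2ry14 fell under β-SITO, and Entpd1, Nt5e and P2ry12 rose. Among all tested genes 22.8% were called, 10.1% as lower and 12.7% as higher, against 3 of 10 purinergic genes in each direction. With the adjusted p alone 9 of the 10 passed, against 66.9% of all tested genes. For 9 of the 10, no HO + β-SITO library lay within the range of the HO + Vehicle libraries, against 70.5% of all tested genes, so for these last counts the background itself was high. The median log2 fold change was 0.28 over the 10 genes and -0.01 over all tested genes. The 6 calls held under all 16 alternative settings. These are bulk libraries, in which fewer cells of a type and less RNA per cell cannot be told apart. The cell type markers that also differed between the groups are given further on.

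**Figure D1:**
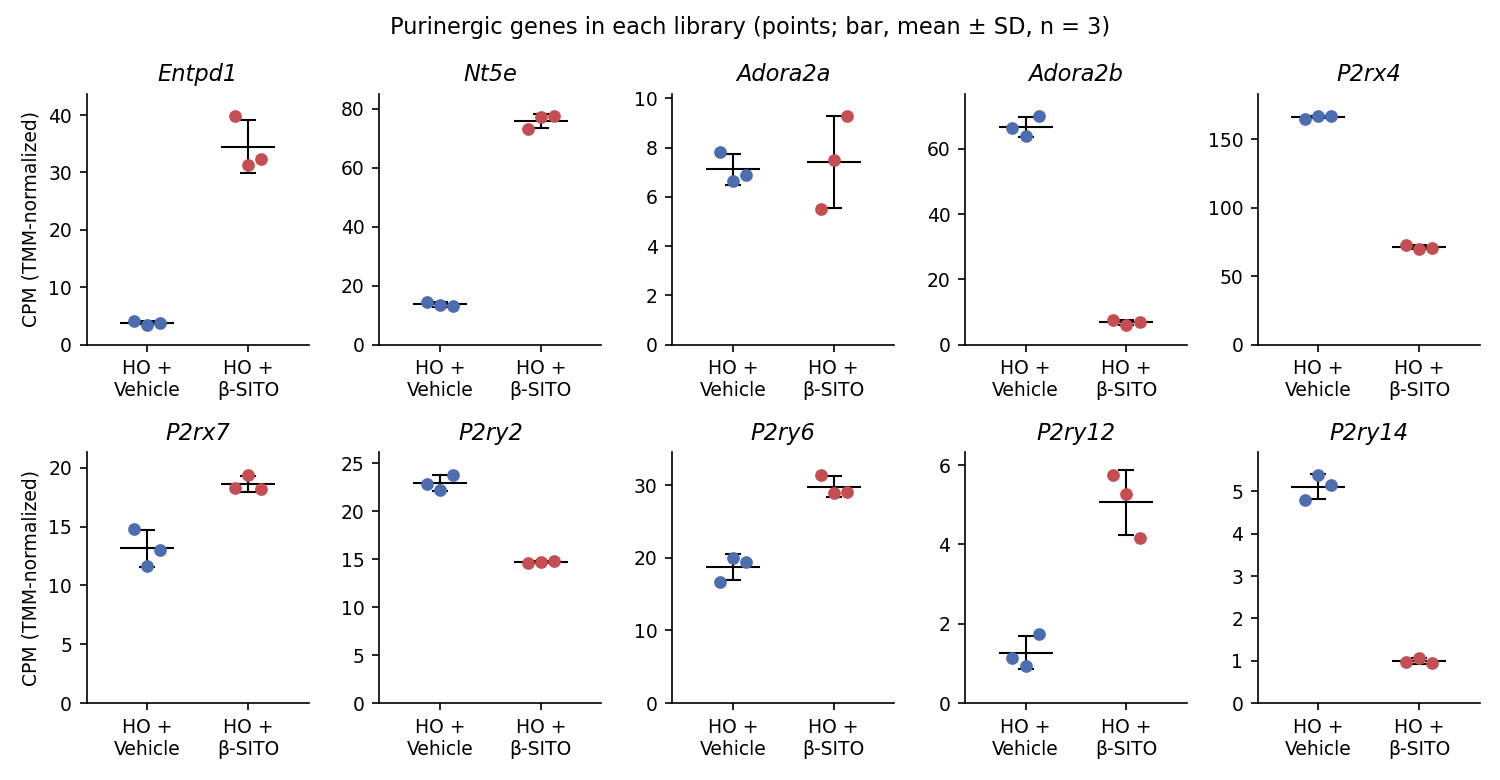
TMM-normalized CPM (vertical axes, each from 0) of the 10 genes in the 3 HO + Vehicle libraries (blue) and the 3 HO + β-SITO libraries (red), with the mean ± SD. The groups are apart for every gene shown except Adora2a, whose HO + β-SITO libraries run from 5.50 to 9.27 CPM around the HO + Vehicle values.

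The enzymes showed the largest increases of the 10 genes. Entpd1 (ENSMUSG00000048120, GRCm39 chromosome 19, 40600810 to 40730046, plus strand), which encodes CD39, was at 4.11, 3.51 and 3.84 CPM in V1, V2 and V3, and at 39.8, 31.3 and 32.3 CPM in T4, T5 and T6. Every HO + β-SITO library was far above the HO + Vehicle libraries, and T4 was the highest of them. Entpd1 rose 9.02-fold (log2 fold change 3.17, SE 0.12, edgeR adjusted p = 5.52e-15). Without T4 the log2 fold change was 3.06. Nt5e (ENSMUSG00000032420, chromosome 9, 88209250 to 88254145, plus strand), which encodes CD73, was at 14.4, 13.5 and 13.02 CPM in V1, V2 and V3. It was at 73.1, 77.1 and 77.4 CPM in T4, T5 and T6, with little spread within either group. Nt5e rose 5.56-fold (log2 fold change 2.48, SE 0.07, edgeR adjusted p = 7.71e-17). So transcripts of both enzymes that lead from ATP to adenosine rose in all 3 HO + β-SITO libraries.

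Per kilobase of exon, which allows levels of different genes to be compared, Nt5e exceeded Entpd1 in every library. Nt5e made up 69.8% ± 1.35 (SD, n = 3) of the reads per kilobase of the pair in HO + Vehicle and 58.9% ± 3.93 (SD, n = 3) in HO + β-SITO. The values were 69.5%, 71.4% and 68.7% in V1 to V3 and 54.4%, 61.5% and 60.8% in T4 to T6, with no overlap (two-sided exact permutation test, p = 0.1, which is the lowest p that 3 against 3 can give). Such a percentage is formed within a library and does not move with the scaling between libraries. Deposited rows that overlap the span of Entpd1 held few counts. The processed pseudogene Gm8783 had 6 to 15 counts in a library, Gm16027 had 0 to 2, and the lncRNAs Gm50132 and ENSMUSG00000120685 had 0.

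Of the adenosine receptors among the 10 genes, Adora2b fell and Adora2a showed no clear change. Adora2b (ENSMUSG00000018500, chromosome 11, 62139810 to 62157279, plus strand), the low-affinity adenosine receptor coupled to cAMP, was at 66.3, 63.9 and 69.9 CPM in V1, V2 and V3. It was at 7.66, 6.01 and 6.82 CPM in T4, T5 and T6. This was the largest decrease of the 10 genes, 9.73-fold (log2 fold change -3.28, SE 0.09, edgeR adjusted p = 1.54e-17). Adora2a (ENSMUSG00000020178, chromosome 10, 75152711 to 75170618, plus strand), the high-affinity receptor coupled to cAMP, was at 7.83, 6.64 and 6.88 CPM in V1, V2 and V3 and at 5.50, 7.48 and 9.27 CPM in T4, T5 and T6. Its HO + β-SITO libraries spread to both sides of the others, T4 below and T6 above. The log2 fold change was 0.06 (SE 0.17, edgeR adjusted p = 0.774), it ran from -0.13 without T6 to 0.24 without T4, and neither was called.

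Within a library, Adora2a made up 6.64%, 5.90% and 5.597% of the reads per kilobase of Adora2a plus Adora2b in V1, V2 and V3. In T4, T5 and T6 it made up 30.2%, 42.8% and 45.0%. The mean was 6.05% ± 0.54 (SD, n = 3) in HO + Vehicle and 39.3% ± 7.996 (SD, n = 3) in HO + β-SITO, and the groups did not overlap (two-sided exact permutation test, p = 0.1, the smallest possible). Adora2a itself showed no clear change, so its share rose with the fall of Adora2b. The other adenosine receptors were Adora1, which lowers cAMP, and Adora3. Adora1 had 334, 248 and 269 counts in V1 to V3 and 167, 223 and 259 in T4 to T6 (log2 fold change -0.63, SE 0.17, edgeR adjusted p = 9.39e-03) and was under the 2-fold limit. Adora3 was near the detection limit, with 15, 16 and 11 counts in V1 to V3 and 2, 0 and 4 in T4 to T6, and it was called lower (edgeR adjusted p = 1.13e-04), except with a filter at 1 CPM, which removed it. Summed over the 4 adenosine receptors, the level was 41.8 ± 1.81 CPM per kilobase in HO + Vehicle and 8.14 ± 0.86 in HO + β-SITO (SD, n = 3).

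Of the P2X channels, P2rx4 was the most abundant in every library. P2rx4 (ENSMUSG00000029470, chromosome 5, 122845607 to 122867801, plus strand), an ATP-gated cation channel found on lysosomes and on the cell surface, was at 165.0, 166.6 and 166.7 CPM in V1, V2 and V3 and at 72.9, 70.0 and 70.8 CPM in T4, T5 and T6. Both groups were tight, and P2rx4 fell 2.33-fold (log2 fold change -1.22, SE 0.06, edgeR adjusted p = 1.09e-13). P2rx7 (ENSMUSG00000029468, chromosome 5, 122781974 to 122829495, plus strand), the channel that opens at high ATP and is known for activating the NLRP3 inflammasome, was at 14.8, 11.7 and 13.02 CPM in V1, V2 and V3. It was at 18.3, 19.4 and 18.2 CPM in T4, T5 and T6, above every HO + Vehicle library. The difference was 1.41-fold higher (log2 fold change 0.50, SE 0.10, edgeR adjusted p = 1.56e-04), which is under the 2-fold limit, so P2rx7 was not called. The miRNA row Mir8115, within the span of P2rx7, held 0 counts.

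P2rx7 accounted for 9.54%, 7.61% and 8.42% of the reads per kilobase of P2rx4 plus P2rx7 in V1, V2 and V3. In T4, T5 and T6 it accounted for 22.8%, 24.6% and 23.2%. The means were 8.52% ± 0.97 and 23.5% ± 0.94 (SD, n = 3 each), with no overlap (two-sided exact permutation test, p = 0.1, the smallest possible). Of the other P2X channels, 3 of 5 could be tested and 1 was called. That is 33.3% of only 3 genes, against 22.8% of all tested genes, and so not far from the background. The called gene was P2rx1, with 35, 28 and 19 counts in V1 to V3 and 11, 13 and 18 in T4 to T6 (log2 fold change -1.19, SE 0.32, edgeR adjusted p = 2.50e-03). That call was lost without V1 and with glmTreat, which tests against the 2-fold limit itself. P2rx3 (log2 fold change 0.52, SE 0.34) and P2rx5 (0.08, SE 0.23) were not called, and P2rx2 and P2rx6 had too few counts to be tested. Summed over 7 channels, the P2X level was 28.2 ± 0.28 CPM per kilobase in HO + Vehicle and 15.5 ± 0.56 in HO + β-SITO (SD, n = 3).

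The P2Y receptors moved in both directions. P2ry12 (ENSMUSG00000036353, chromosome 3, 59123693 to 59170292, minus strand), the ADP receptor of platelets and microglia, was at 1.14, 0.94 and 1.74 CPM in V1, V2 and V3 and at 5.76, 5.28 and 4.16 CPM in T4, T5 and T6. The raw counts were 18, 15 and 28 against 112, 94 and 80, the lowest level among the 3 genes that rose. P2ry12 rose 3.96-fold (log2 fold change 1.99, SE 0.23, edgeR adjusted p = 2.24e-07). P2ry14 (ENSMUSG00000036381, chromosome 3, 59021276 to 59061039, minus strand), the receptor for UDP-glucose, had 76, 86 and 83 counts in V1, V2 and V3 and 19, 19 and 18 in T4, T5 and T6. In CPM these were 4.80, 5.39 and 5.14 against 0.98, 1.07 and 0.94, and P2ry14 fell 5.12-fold (log2 fold change -2.36, SE 0.21, edgeR adjusted p = 3.44e-09).

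P2ry6 and P2ry2 also differed in opposite directions, each by less than 2-fold. P2ry6 (ENSMUSG00000048779, chromosome 7, 100586837 to 100623856, minus strand), a UDP receptor, was at 16.7, 19.998 and 19.5 CPM in V1, V2 and V3 and at 31.4, 28.8 and 29.1 CPM in T4, T5 and T6. It was 1.59-fold higher in HO + β-SITO (log2 fold change 0.67, SE 0.09, edgeR adjusted p = 9.27e-07). P2ry2 (ENSMUSG00000032860, chromosome 7, 100645775 to 100662073, minus strand), a receptor for ATP and UTP, was at 22.8, 22.2 and 23.8 CPM in V1, V2 and V3 and at 14.6, 14.7 and 14.8 CPM in T4, T5 and T6. It was 1.56-fold lower (log2 fold change -0.64, SE 0.08, edgeR adjusted p = 1.18e-06). Neither was called, although for both the libraries of the groups lay apart. The row Gm44545, within the span of P2ry6 on the other strand, held 0 or 1 count in a library.

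Of the other P2Y receptors, 3 of 5 could be tested and 2 were called, 1 higher and 1 lower. That is 66.7% of only 3 genes, against 22.8% of all tested genes. P2ry13, an ADP receptor, had 27, 38 and 27 counts in V1 to V3 and 114, 102 and 110 in T4 to T6 and rose (log2 fold change 1.58, SE 0.18, edgeR adjusted p = 2.20e-07). P2ry10b, which is related to lysophospholipid receptors, had 85, 76 and 101 counts against 55, 60 and 33 and was just past the 2-fold limit (log2 fold change -1.05, SE 0.21, edgeR adjusted p = 1.82e-04). The P2ry10b call was lost under 5 of the 16 alternatives, including those without V3 and without T6. P2ry1, another ADP receptor, was not called (log2 fold change -0.94, SE 0.19), and P2ry4 and P2ry10 had too few counts to be tested.

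Several of these genes are neighbours in the genome and are on the same strand, and they differed in opposite directions. P2rx7 and P2rx4 are 16111 bases apart, with log2 fold changes of 0.50 and -1.22. P2ry6 and P2ry2 are 21918 bases apart, with log2 fold changes of 0.67 and -0.64. In the cluster on chromosome 3, P2ry14 (-2.36) is followed after 54273 bases by P2ry13 (1.58), and P2ry13 after 5389 bases by P2ry12 (1.99). These gaps are those between the gene spans of the deposited table (GRCm39), and the arrangement was noticed after the fold changes were known. The whole cluster lies within the span of Med12l, a Mediator kinase subunit gene on the opposite strand. Whether strand was used in counting is not given in the sources used here, so reads from Med12l and from these receptors cannot be told apart with certainty where their exons overlap. Med12l itself had 22 to 29 counts in HO + Vehicle and 29 to 49 in HO + β-SITO (log2 fold change 0.33, SE 0.26, edgeR adjusted p = 0.278). Gpr171, also in the cluster, had too few counts to be tested.

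The sequences upstream of the transcription start are shown for the 5 genes with the largest fold changes, since these genes include neighbours that moved in opposite directions. RefSeq windows on GRCm38.p6 were matched by symbol for 8 of the 10 genes, 14 windows in all, and P2ry6 and Adora2a had none. The build differs from that of the counts, so these positions must not be set beside the gene spans above. Each line gives the 250 bases before the RefSeq start, 5′ to 3′ on the gene's strand. For the genes with several windows, Entpd1 and P2ry14, the one farthest upstream is shown. Capitals mark matches to the motifs searched.
Adora2b, chr11:62248734-62248983, plus strand: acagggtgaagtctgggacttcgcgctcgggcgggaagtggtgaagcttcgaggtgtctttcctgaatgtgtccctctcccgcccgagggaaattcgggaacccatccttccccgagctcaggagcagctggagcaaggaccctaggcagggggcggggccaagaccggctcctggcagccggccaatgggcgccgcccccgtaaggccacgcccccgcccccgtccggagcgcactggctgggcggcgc
Entpd1, chr19:40612116-40612365, plus strand: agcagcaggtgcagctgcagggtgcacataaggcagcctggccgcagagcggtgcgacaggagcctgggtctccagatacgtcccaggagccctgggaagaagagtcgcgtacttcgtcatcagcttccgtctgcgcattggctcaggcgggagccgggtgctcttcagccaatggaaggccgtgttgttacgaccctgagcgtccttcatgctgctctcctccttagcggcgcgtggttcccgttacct
Nt5e, chr9:88327359-88327608, plus strand: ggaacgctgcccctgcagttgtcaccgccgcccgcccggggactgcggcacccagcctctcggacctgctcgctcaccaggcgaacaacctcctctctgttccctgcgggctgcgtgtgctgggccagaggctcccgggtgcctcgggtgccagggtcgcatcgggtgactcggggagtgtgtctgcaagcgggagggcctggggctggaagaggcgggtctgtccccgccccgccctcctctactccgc
P2ry12, chr3:59262986-59263235, minus strand: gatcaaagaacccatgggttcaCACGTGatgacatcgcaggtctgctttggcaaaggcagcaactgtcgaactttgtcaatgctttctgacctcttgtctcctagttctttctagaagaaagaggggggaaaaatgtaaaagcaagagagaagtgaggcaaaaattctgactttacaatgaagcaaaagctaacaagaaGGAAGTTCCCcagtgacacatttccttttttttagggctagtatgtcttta
P2ry14, chr3:59153493-59153742, minus strand: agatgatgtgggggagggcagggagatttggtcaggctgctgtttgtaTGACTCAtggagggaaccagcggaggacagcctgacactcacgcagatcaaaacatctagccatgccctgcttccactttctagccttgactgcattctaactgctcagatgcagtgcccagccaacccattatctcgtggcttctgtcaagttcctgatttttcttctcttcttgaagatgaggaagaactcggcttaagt

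The motifs were searched on both strands. They were AP-1 (TGANTCA), the hypoxia response core (ACGTG), the cAMP response element (TGACGTCA), ISRE (GAAANNGAA), GAS (TTCNNNGAA) and the NF-kB motif. The 250 bases of Adora2b, Nt5e and P2rx4 held none of these letters, and neither did either Entpd1 window. P2ry12 held an NF-kB match 51 bases and the letters CACGTG 228 bases before the start. CACGTG contains the hypoxia core on both strands, so it is 1 place read in both directions. P2ry14 held AP-1 matches in 2 of its 4 windows, TGACTCA 202 bases before the start in the window shown and TGAATCA 144 bases before another start. P2rx7 held 1 AP-1 match, and P2ry2 held CACGTG 18 bases before 1 of its starts. The first bases after the P2ry12 start, and after the P2ry14 start with TGAATCA, were found in 0 GENCODE vM21 transcripts of these genes. Over all 32807 windows of this length, 7.25% held the NF-kB motif, 6.75% AP-1, 16.6% the hypoxia core, 1.55% the cAMP response element, 7.12% ISRE and 7.02% GAS. Apart from the cAMP response element, such letters are thus found in many windows. No match of one motif overlapped that of another, and a match does not show that a factor binds. In base composition the windows fell on both sides of the median of all windows, 52.4% GC and 6 CpG. Nt5e had 72.0% GC and 21 CpG, and Adora2b, which moved the other way, had 69.6% and 22. P2ry12 had 41.6% GC and 3 CpG.

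Per kilobase of exon the order of the 10 genes was not the same in both groups. In HO + Vehicle the order was Adora2b (36.2 ± 1.65 CPM per kilobase, SD, n = 3), P2rx4 (23.6 ± 0.14), P2ry6 (6.48 ± 0.62), P2ry2 (5.84 ± 0.21), Adora2a, P2rx7, Nt5e (1.58 ± 0.08), Entpd1 (0.68 ± 0.05), P2ry12 (0.50 ± 0.16) and P2ry14 (0.46 ± 0.03). The libraries of P2ry6 and P2ry2 overlapped, as did those of Adora2a and P2rx7, of Entpd1 and P2ry12, and of P2ry12 and P2ry14, so these neighbours in the order were not separated by their spread. In HO + β-SITO the order was P2ry6 (10.3 ± 0.49), P2rx4 (10.1 ± 0.21), Nt5e (8.82 ± 0.28), Entpd1 (6.18 ± 0.83), P2ry2 (3.74 ± 0.02), Adora2b (3.70 ± 0.45), P2rx7, Adora2a, P2ry12 (1.99 ± 0.32) and P2ry14 (0.09 ± 0.01). Here P2ry6 and P2rx4 overlapped, as did P2ry2 and Adora2b, and Adora2a and P2ry12. Exon lengths were those of GENCODE vM21, matched by gene identifier, and a change in which transcript of a gene is used would alter these levels.

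**Figure D2:**
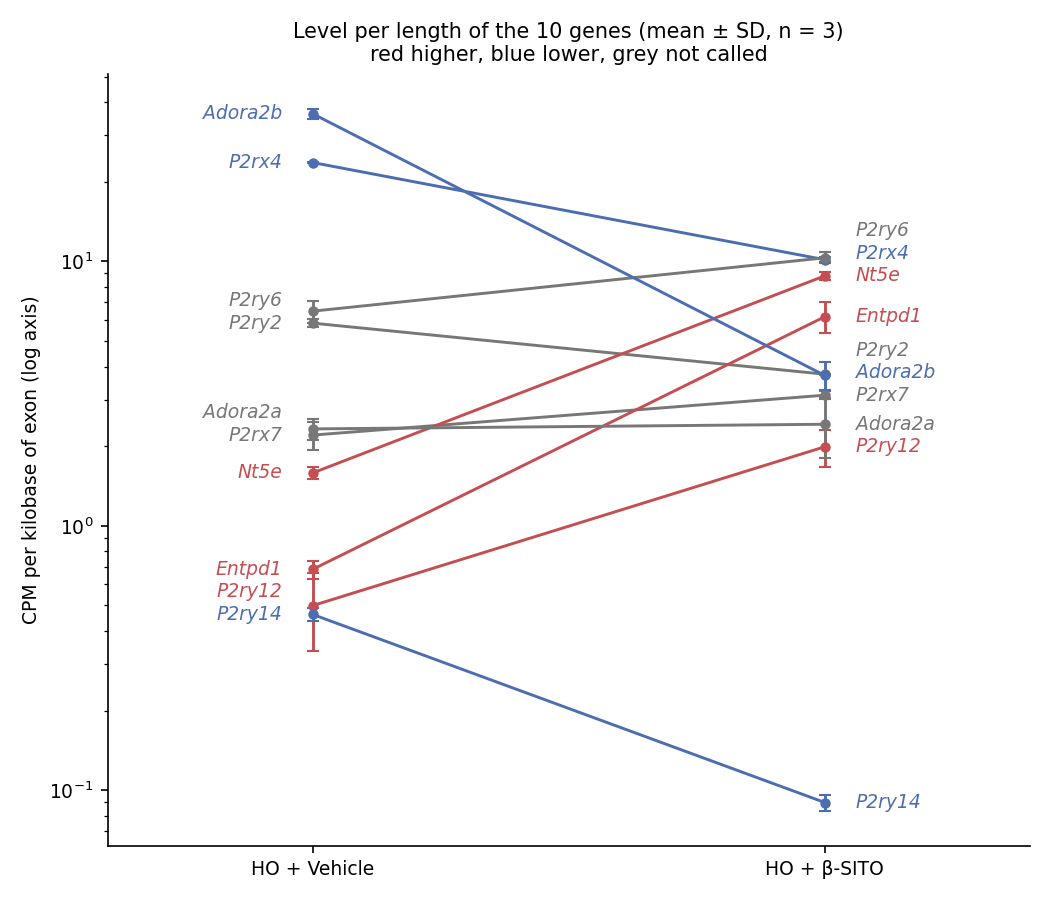
Mean CPM per kilobase of exon (log axis, bars ± SD, n = 3) of the 10 genes in HO + Vehicle (left) and HO + β-SITO (right). Adora2b goes from the first to the sixth place, and Nt5e and Entpd1 to the third and the fourth place from the seventh and the eighth.

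The make-up of the families these genes belong to was also described within each library, without a test. The P2Y family was taken by gene name as 9 genes, with P2ry10 and the lysophospholipid receptor relative P2ry10b (9.24% in HO + Vehicle, 3.80% in HO + β-SITO) among them. Of their reads per kilobase, P2ry6 was 37.9% ± 2.29 in HO + Vehicle and 51.8% ± 1.79 in HO + β-SITO (SD, n = 3). P2ry2 was 34.3% ± 1.65 and 18.8% ± 1.11, and P2ry12 was 2.91% ± 0.82 and 9.95% ± 1.11. The summed level of these 9 genes was 17.1 ± 0.96 and 19.9 ± 1.07 CPM per kilobase. Among the 17 ectonucleotidases and nucleotide phosphatases, Entpd1 and Nt5e were 0.57% ± 0.04 and 1.32% ± 0.10 in HO + Vehicle and 7.88% ± 1.05 and 11.2% ± 0.40 in HO + β-SITO. That list was dominated in HO + Vehicle by Enpp4 (43.6% ± 1.53) and Enpp2 (20.9% ± 0.50). Its summed level was 120.6 ± 5.41 CPM per kilobase in HO + Vehicle and 78.4 ± 0.77 in HO + β-SITO (SD, n = 3). As that sum was lower, the shares of Entpd1 and Nt5e rose by more than their levels.

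**Figure D3:**
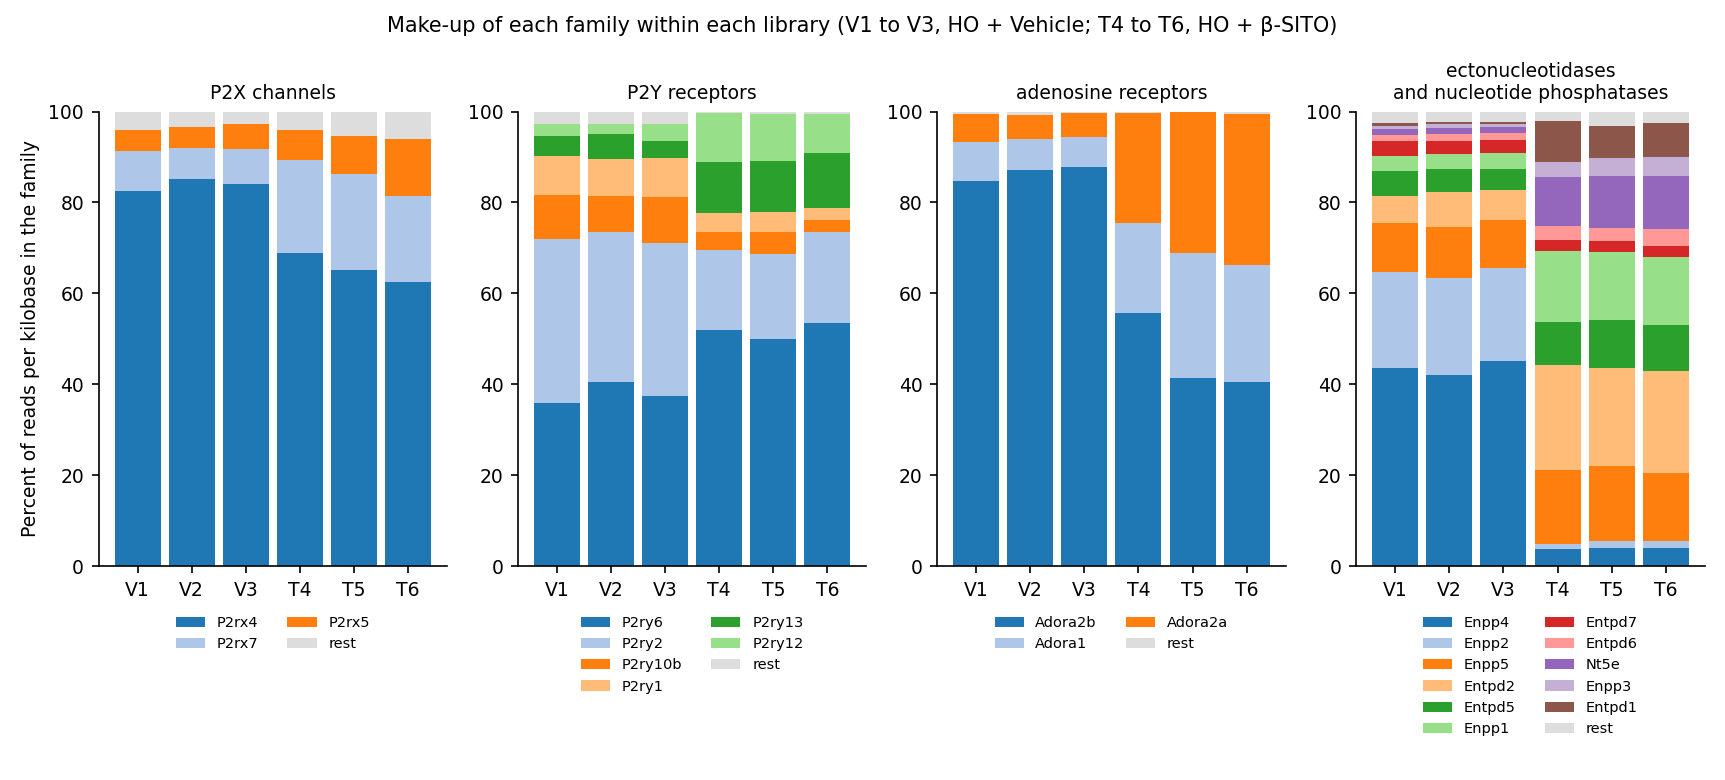
Percent of the reads per kilobase of each family (vertical axis) that each gene made up in each library, with V1 to V3 from HO + Vehicle and T4 to T6 from HO + β-SITO. Grey is the sum of genes under 3% in both groups. The Adora2b share is 84.8% to 87.7% in V1 to V3 and 40.6% to 55.7% in T4 to T6.

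Of 62 other genes of the purinergic pathway lists, 49 could be tested, of which 17 were called lower and 8 higher. That is 51.0% of those tested, against 22.8% of all tested genes (10.1% lower and 12.7% higher). The 62 are not all receptors or enzymes. They include the 6 inflammasome genes, all called lower, the 8 cAMP-responsive genes, 2 called higher, and Med12l with its cluster. Some inflammasome genes had been singled out by the study from these libraries, so the 51.0% is not independent evidence. The median log2 fold change of the 49 was -0.07. Of the 25 calls, 18 held under all 16 alternatives, and those of P2rx1, P2ry10b, Adora3, Entpd2, Alpl, Nlrp3 and Il18 were lost under at least 1 of them (for Entpd2 and Il18 under glmTreat). Among the other nucleotide-cleaving enzymes, 4 of 12 tested rose and 4 fell, which is 66.7% of those tested against 22.8% of all tested genes. Those that rose were Entpd2, which turns ATP to ADP (log2 fold change 1.12, SE 0.09), Enpp1, which makes AMP and pyrophosphate from ATP (1.52, SE 0.07), Enpp3 (1.85, SE 0.13) and Entpd4b. Entpd4b is uncertain, since the near-identical Entpd4 was at 0 in every library and Entpd4b varied widely between T4, T5 and T6 (76, 181 and 74 counts). Those that fell were Enpp2, the lysophospholipase autotaxin (-4.59, SE 0.09), Enpp4 (-4.06, SE 0.08), prostatic acid phosphatase (Acpp, -2.42, SE 0.31) and alkaline phosphatase Alpl (-1.01, SE 0.14). Alpl stood at the 2-fold limit and lost its call under 7 of the 16 alternatives.

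Among 8 tested genes of adenosine uptake and clearance, 1 rose and 2 fell, which is 37.5% of those tested against 22.8% of all tested genes. Adk, adenosine kinase, rose (log2 fold change 1.38, SE 0.07). Slc28a2, a sodium-coupled nucleoside transporter, fell (-3.23, SE 0.21), as did Pnp, purine nucleoside phosphorylase (-2.50, SE 0.06), whose near-copy Pnp2 also had fewer counts in T4 to T6 (9 to 19) than in V1 to V3 (156 to 207), so reads could be split between them. The most abundant per length after Pnp in HO + Vehicle was the equilibrative nucleoside transporter Slc29a1, which was not called (0.06, SE 0.06). Of 6 tested genes of nucleotide release, 2 were called, both lower, which is 33.3% against 22.8% of all tested genes. Panx1, the pannexin channel for ATP, fell (-1.995, SE 0.07) with 926, 918 and 894 counts in V1 to V3 and 277, 255 and 277 in T4 to T6. Slco2a1, a subunit of a large ATP-permeable channel, fell too (-1.94, SE 0.06). Gja1 (-0.05, SE 0.23), Slc17a9 (-0.03, SE 0.24), Lrrc8a (0.28, SE 0.07) and Calhm2 (0.08, SE 0.10) were not called, and Panx2 and Panx3 were too low to be tested.

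All 6 inflammasome genes that act downstream of P2X7 were called lower, against 10.1% of all tested genes, with a median log2 fold change of -1.73. P2rx7 itself was 1.41-fold higher without a call. The 6 inflammasome genes were Gsdmd, the pore-forming gasdermin (log2 fold change -2.57, SE 0.07), the adaptor Pycard (-1.83, SE 0.15), Casp1 (-1.64, SE 0.14), Il18 (-1.30, SE 0.21), Nlrp3 (-1.10, SE 0.15) and Il1b. Nlrp3, Il1b and Gsdmd are among the genes the study singled out from these libraries, so their direction is not independent evidence. Il1b had 3124, 3522 and 3447 counts in V1 to V3 and 4, 1 and 2 in T4 to T6. The call of Nlrp3 was lost under 5 alternatives, including those without V1 and without T6. Of 8 genes known to respond to cAMP, which Adora2a and Adora2b raise, 2 were called, both higher, which is 25.0% of the list against 22.8% of all tested genes and so close to the background. They were the nuclear receptor genes Nr4a1 (log2 fold change 2.79, SE 0.13), with 42, 40 and 37 counts in V1 to V3 and 334, 307 and 333 in T4 to T6, and Nr4a3 (1.57, SE 0.22). Crem (-0.32, SE 0.10), Nr4a2 (-0.21, SE 0.18), Per1 (0.64, SE 0.09), Sik1 (-0.74, SE 0.08), Pde4b (-0.87, SE 0.06) and Pde4d (0.95, SE 0.10) were under the 2-fold limit, on both sides of 0.

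**Figure D4:**
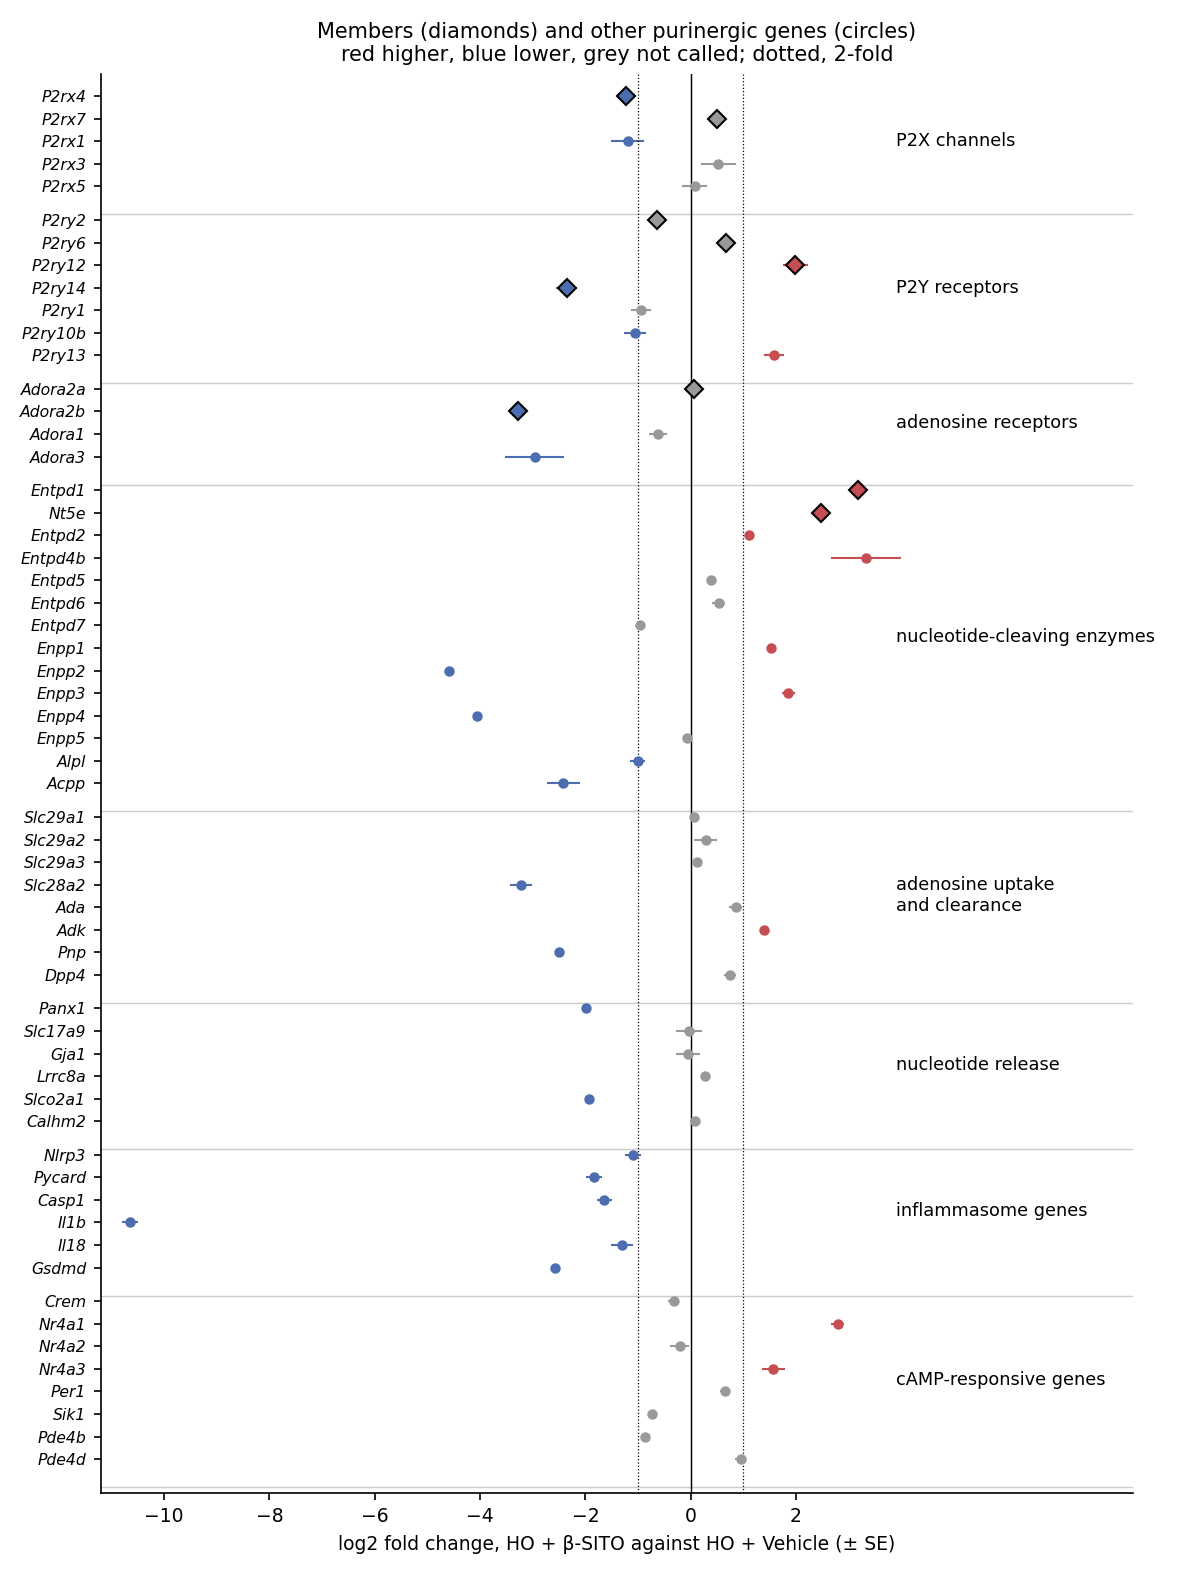
Log2 fold change of HO + β-SITO against HO + Vehicle (horizontal axis, ± SE from edgeR) for the 10 genes (diamonds) and the other tested purinergic genes (circles), grouped by role, with called genes in colour. The inflammasome genes are all on the lower side, and Il1b, at 1 to 4 counts in T4 to T6, has a fitted value that depends on the prior count.

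Markers of several cell types also differed between the groups. CPM sums over marker lists are given as the range over the 3 libraries of HO + Vehicle and then of HO + β-SITO. Counts of called markers stand against 12.7% of all tested genes called higher and 10.1% called lower. Endothelial markers, of which 8 of 8 were called higher, summed to 204 to 234 and 837 to 867 CPM. Macrophage markers, of which 8 of 12 were called higher and 1 lower (Fcgr1), summed to 719 to 738 and 1679 to 2058 CPM. Mrc1 and Cx3cr1, macrophage receptors, were the most changed of that list (log2 fold changes 4.79, SE 0.13, and 3.86, SE 0.10), while Adgre1 (-0.06, SE 0.07) and Ptprc (-0.03, SE 0.09) were not called. Entpd1, Nt5e and P2ry12 rose beside these lists, while Adora2b, P2rx4 and P2ry14 fell as the sums of these lists rose. CD39 is known on endothelial cells and macrophages, CD73 on endothelial cells and fibroblasts, and P2ry12 on platelets and microglia. The part of these cell types in the differences was not tested.

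Platelet and megakaryocyte markers summed to 20.8 to 25.8 and 47.2 to 58.4 CPM, and 3 of 4 tested were called higher. That sum was mostly Pf4, at 17.7 CPM in V1 and 53.9 CPM in T4. Gp1ba and Ppbp, also called, were near the detection limit with 2 to 18 counts in a library. Itga2b was not called (log2 fold change 0.51, SE 0.26), and Gp9 was too low to be tested. Fibroblast markers summed to 29833 to 31113 and 44413 to 45501 CPM, a sum made up mostly of the collagens Col1a1, Col1a2 and Col3a1. Each of the 8 differed by less than 2-fold, and they went in both directions, with Dcn (log2 fold change -0.52, SE 0.07) and Postn (-0.22, SE 0.07) lower and Col3a1 higher (0.85, SE 0.06). Smooth muscle and pericyte markers, with 2 of 6 called higher, summed to 1097 to 1188 and 1879 to 2124 CPM. The cardiomyocyte markers expected from the label were present in every library but summed to less than the fibroblast markers, 6122 to 7107 CPM in HO + Vehicle and 5509 (T4), 9252 (T5) and 9395 (T6) CPM in HO + β-SITO, and 2 of 10 (Myl7 and Nppa) were called higher. Only Tnnt2 (log2 fold change -0.47, SE 0.10, edgeR adjusted p = 1.62e-03) and Mybpc3 (-0.30, SE 0.26) of that list were on the lower side, without a call. The rest were above 0 without a call, Myh7 the most (1.61, SE 0.52, edgeR adjusted p = 0.0508). The median log2 fold change of the list was 0.28. T4 thus stood below T5 and T6 in cardiomyocyte markers and above them in macrophage markers. Of the HO + β-SITO libraries it was also the highest for Entpd1, P2ry12 and P2ry6, and for P2rx4 and Adora2b, which fell. For Nt5e, which rose, and for P2ry2 and Adora2a, T4 was the lowest of them. Leaving T4 out kept all 6 calls, with a log2 fold change of 1.88 for P2ry12 and -3.37 for Adora2b. Of the neutrophil markers 1 could be tested, Csf3r (lower), and Ly6g was at 0. The T lymphocyte markers Cd3d, Cd3e and Cd3g were at 0 in every library.

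**Figure D5:**
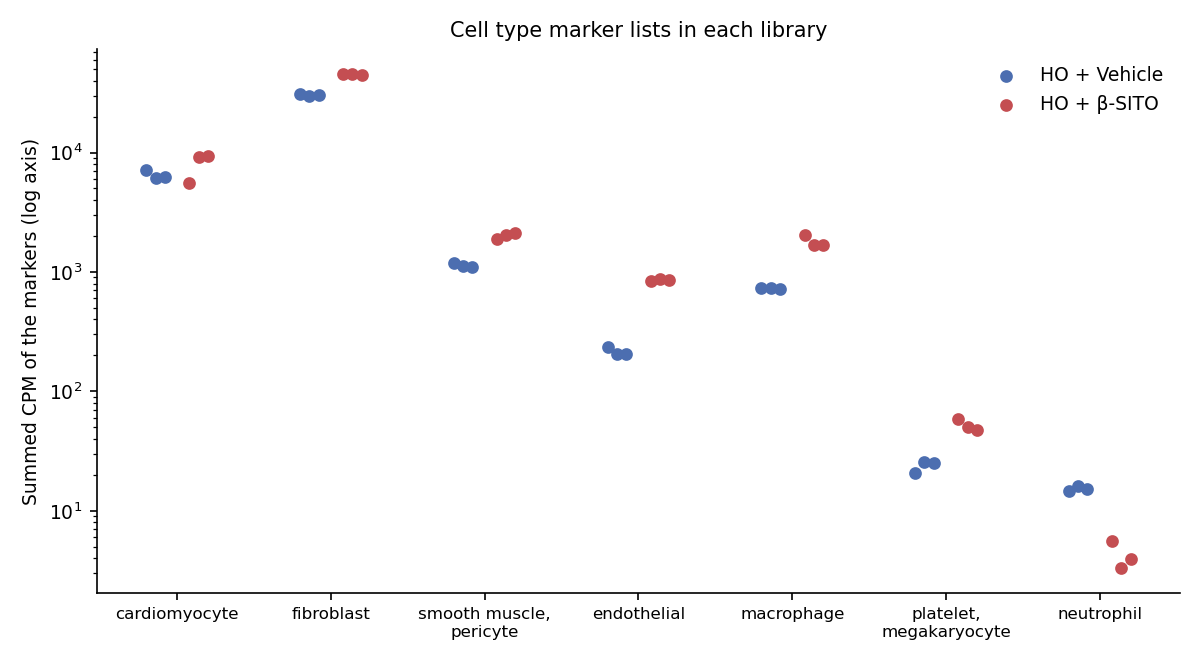
Summed CPM (log axis) of each cell type marker list in each library of HO + Vehicle (blue) and HO + β-SITO (red). Endothelial and macrophage lists are higher in every HO + β-SITO library, while in the cardiomyocyte list 1 of them, T4, is below the HO + Vehicle libraries.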

How the data were processed

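RNA-seq libraries of 6 samples (3 HO + Vehicle, 3 HO + β-SITO) were used, with groups taken from the sample titles. The authors deposited 1 table of raw read counts per gene, without normalization. The submitters' processing notes list FastQC, HISAT2, featureCounts and GRCm39. Strand setting and versions are not given in the sources used here. The library kit is named as ABclonal in the study's methods and as Illumina TruSeq in the labels. Libraries were sequenced as paired-end reads.

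The counts were filtered with filterByExpr (minimum count 10), TMM-normalized and tested with edgeR 4.0.16 (quasi-likelihood, robust) in R 4.3.3, with Benjamini-Hochberg adjustment over 14799 genes. SE is the absolute log2 fold change divided by the square root of the F statistic. The limits for a call were those of the study, more than 2-fold and an adjusted p under 0.05. Single percentages were compared by exact permutation tests. Alternatives used DESeq2 1.42.0, limma 3.58.1 (voom), glmTreat, other normalizations and filters, no fold limit, no mitochondrially encoded genes, and each library left out. The code was tested on simulated data.

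The genes followed, the pathway and marker lists, the motifs and the tests were chosen with earlier results of these data known. Genes named from the purinergic lists are those called, the most abundant per length, and members of lists of up to 8 genes. The marker genes named were selected once their values were known. Percentages of whole families and Python 3.11.15 figures describe values without tests. Values of some listed genes are not reported here.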

Additional observations from a re-analysis of the deposited data

How the results depend on the processing

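With 16 alternatives for each of the 10 genes, 160 log2 fold changes were set beside the main ones, and 156 kept their direction and their side of the limits. Without a fold limit and under glmTreat the log2 fold changes are those of the main fit, and only the rule for a call differs. The exceptions were P2rx7, P2ry2 and P2ry6, which passed when no fold limit was set, and Adora2a, whose log2 fold change was -0.13 without T6 and 0.24 without T4. Without the fold limit, 9 of the 10 genes passed, 4 lower and 5 higher, and of the other pathway genes 23 were lower and 15 higher, all by the construction of that alternative. Leaving out 1 library at a time left 6 calls among the 10 genes, and gave 14 to 18 other pathway genes as lower and 8 to 10 as higher. Upper quartile normalization and library size alone moved the median log2 fold change of all genes by 0.14 and 0.15 towards HO + β-SITO, with 14 other pathway genes lower under each and no change of direction or call among the 10. Taken from raw counts without division by length, the difference of HO + β-SITO and HO + Vehicle in the Adora2a percentage was 42.0 points against 33.3, and that in the P2rx7 percentage was 13.4 points against 15.0, both in the same direction. The replicate numbers 1 to 3 and 4 to 6 are not shared by the groups. No paired analysis was possible because the groups share no replicate number. Depth limits P2ry12 and P2ry14, which were at 15 to 28 and 18 to 19 counts in their lower group.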
